A study of Mus musculus with 6 samples.

Results

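The genes described here are the 10 vascular growth factor and receptor genes *Vegfa*, *Vegfb*, *Vegfc*, *Flt1*, *Kdr*, *Flt4*, *Angpt1*, *Angpt2*, *Tek* and *Tie1*, picked by symbol from the 34461 genes of a bulk RNA-seq count table of mouse ovaries. All 10 passed the filter on low counts that left 18959 genes in the test. The libraries came from whole ovaries of 3 *Trim28* cKO females and 3 control females aged 7 months, on a mixed 129SV/C57BL6/J background. *Trim28* cKO females were *Trim28* flox/flox with the *Nr5a1:Cre* transgene, which deletes the floxed gene in somatic cells of the gonad from fetal life, so the deletion was directed at the granulosa lineage and its neighbours and not at the endothelium. According to the study's methods, controls were genotypes that keep at least one working copy of *Trim28*, either *Trim28* flox/flox without the transgene or *Trim28* flox/+ with it, and the labels do not say which control library is which. *Trim28* encodes a nuclear scaffold protein of chromatin with SUMO ligase activity, and the study asked what its loss does to ovarian cell identity.

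Blood vessels grow and hold together through a pair of ligand and receptor systems. VEGF ligands bind receptor tyrosine kinases on endothelial cells: VEGFA signals mainly through KDR (VEGFR2), FLT1 (VEGFR1) binds VEGFA tightly and acts largely as a trap for it, and VEGFC signals through FLT4 (VEGFR3), the receptor best known from lymphatic vessels. Angiopoietins bind TEK (TIE2): ANGPT1, made by cells around the vessel, activates it and keeps vessels stable, while ANGPT2, made by endothelial cells under remodelling, often opposes ANGPT1. In the ovary these systems are at work in every cycle, since follicles and above all the corpus luteum, a gland built from the ovulated follicle, are supplied by vessels that grow and regress with them.

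Total counts per library ranged from 23615580 to 48508461. The first principal component of the 6 libraries held 71.7% of their variance and separated both genotypes. *Trim28*, the targeted gene, was at 48.8, 55.6 and 71.2 CPM (read counts scaled to library size, with TMM factors) in *Trim28* cKO ovaries, against 155, 178 and 155 CPM in control ovaries, a log2 fold change of -1.47 (SE 0.15, adjusted p = 0.000663, edgeR). These are bulk libraries, so fewer cells of a type and less RNA per cell cannot be told apart. P-values measure the spread between libraries, which were taken to come from different mice.

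*Flt4* was the member that rose in *Trim28* cKO ovaries, and *Vegfa*, *Flt1* and *Angpt1* fell. *Vegfb*, *Vegfc*, *Kdr*, *Angpt2*, *Tek* and *Tie1* did not pass the test. With a call at an adjusted p of at most 0.05 in the quasi-likelihood test of edgeR, with Benjamini-Hochberg adjustment over all tested genes and no limit on the fold change, 1 of 10 members was higher, where 20.2% of all tested genes were higher, and 3 of 10 were lower, where 16.8% of all tested genes were lower. The median log2 fold change was -0.09 over the members and 0.001 over all tested genes. These counts are near the shares of all tested genes and describe no property of the list, so the values are given gene by gene. The same shares, 20.2% higher and 16.8% lower, stand beside the counts of every other gene list below. Raw counts of the members were between 261 (*Angpt1* in a *Trim28* cKO library) and 15243 (*Vegfa* in a control library), so every member was well above the filter in every library.

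**Figure D1:**
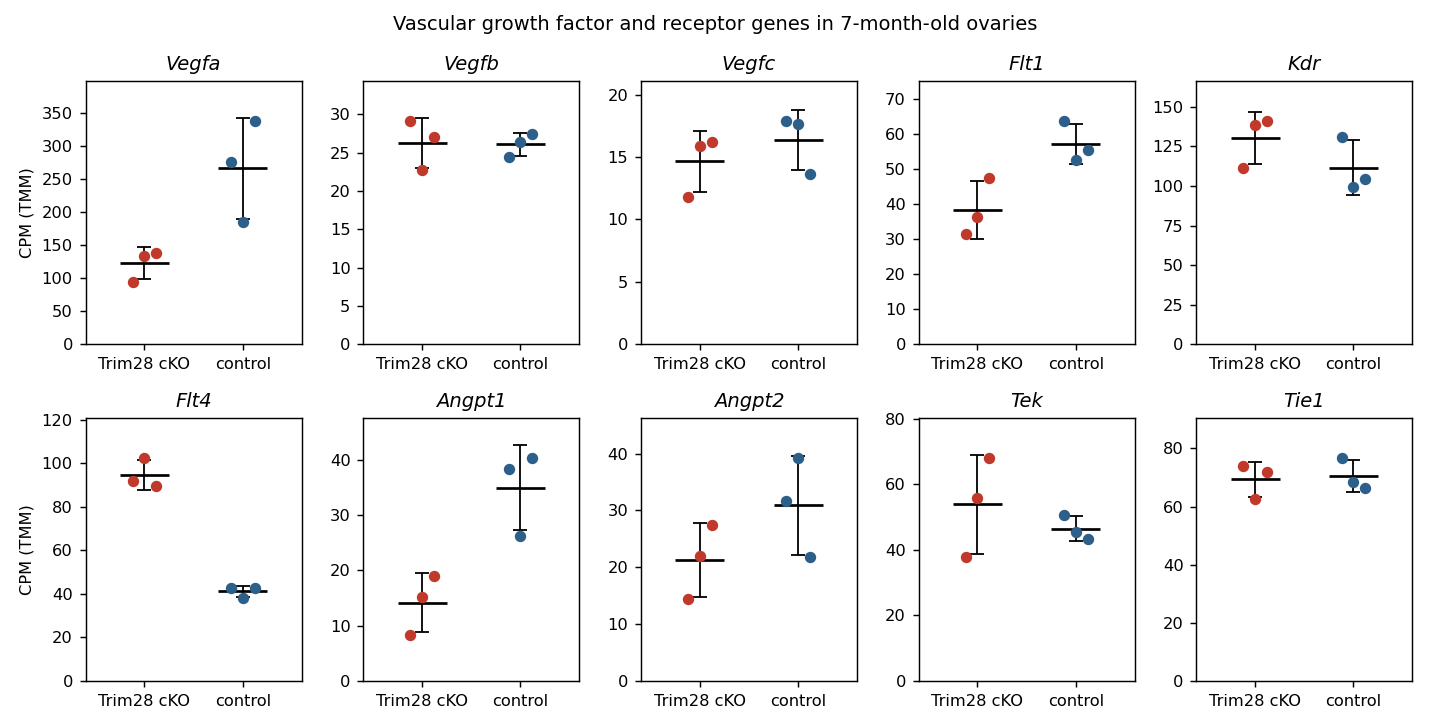
CPM (TMM-scaled read counts) of the 10 genes in each library, with *Trim28* cKO libraries (red) to the left of control libraries (blue). Bars are the mean and whiskers the SD of 3 libraries. *Vegfa*, *Flt1* and *Angpt1* are lower and *Flt4* is higher in all 3 *Trim28* cKO libraries than in any control library, and the groups overlap for the other 6 genes.

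Among the VEGF ligands, *Vegfa* fell in *Trim28* cKO ovaries. It encodes the ligand that drives endothelial growth and leakiness, and in the ovary it is made by granulosa and luteal cells among others. The gene (ENSMUSG00000023951) lies on the minus strand of chromosome 17, 46016993 to 46032369 in mm10. Because the count of a gene does not say from which start site its RNA came, the sequence before the upstream RefSeq start of *Vegfa* is shown as the context of one of its start sites. It is chr17:46032378-46032627 in GRCm38.p6 (RefSeq), the 250 bases before the start site at 46032377, read 5′ to 3′ on the minus strand, with GC boxes (GGGCGG, the core bound by SP1 family factors) in capitals.
*Vegfa* promoter: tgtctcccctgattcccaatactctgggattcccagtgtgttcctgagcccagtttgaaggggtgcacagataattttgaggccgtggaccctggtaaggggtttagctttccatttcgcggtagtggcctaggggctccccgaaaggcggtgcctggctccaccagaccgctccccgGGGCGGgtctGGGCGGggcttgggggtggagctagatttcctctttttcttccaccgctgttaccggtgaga

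Both GC boxes lie close together, with their first bases 62 and 72 bases before the start site. GGGCGG or its reverse complement CCGCCC was found in 32.7% of 32851 RefSeq promoter windows of the same length, so its presence is common. The hypoxia response core ACGTG was searched on both strands in the same window and is not among these letters. Sequence farther upstream was not searched, so a site there would have been missed. The window before a second RefSeq start of *Vegfa*, at 46025163 within the gene, holds its reverse complement CACGT. The first base of that match is 211 bases before that start. Of the 250 bases of this second window, 218 are annotated exon bases, so it is mostly transcribed sequence of the gene. Of all windows 16.6% hold ACGTG or CACGT.

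*Vegfa* was at 94.7, 134 and 139 CPM in *Trim28* cKO ovaries, against 275, 185 and 337 CPM in control ovaries. All 3 *Trim28* cKO libraries were below the lowest control library, and the control libraries were the more scattered group. Mean levels were 122 ± 24.1 CPM in *Trim28* cKO ovaries and 266 ± 76.6 CPM in control ovaries (SD, n = 3 each), a 2.17-fold lower level. The log2 fold change was -1.12 (SE 0.24, 95% interval -1.69 to -0.55, adjusted p = 0.0112, edgeR). With each library left out in turn it ranged from -1.33 to -0.92, with an adjusted p of 0.00513 to 0.0360.

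Markers of luteal and granulosa cells, which make *Vegfa*, moved in the same libraries. Of 8 corpus luteum markers 7 fell and none rose, with a median log2 fold change of -2.17, and *Akr1c18*, which inactivates progesterone, and *Ptgfr*, the prostaglandin F receptor that starts luteal regression, fell by 6.63 and 4.74 on the log2 scale. The summed level of the list was 5935 to 7943 CPM in *Trim28* cKO ovaries and 20598.6 to 35102.8 CPM in control ovaries, and no marker was at 0 in all libraries. The control library with the lowest *Vegfa*, replicate 2, was also the lowest of the control libraries for *Star*, the cholesterol carrier of steroid-making cells. It had 2183 CPM of *Star*, against 5055 and 5057 CPM in the other control libraries. It was the lowest for *Akr1c18* too, with 1352 CPM against 3622 and 3459 CPM. Within *Trim28* cKO ovaries, replicate 1 had the lowest *Vegfa* but the highest *Star*, at 1403 CPM against 821 and 703 CPM. Its *Akr1c18* was the lowest of that group, at 11.51 CPM against 36.63 and 37.05 CPM. Of 10 granulosa markers 5 fell, among them *Esr2* and *Amh*, which fell by 3.02 and 2.46 on the log2 scale. The other 5 did not pass in either direction, with log2 fold changes from -1.32 to 0.62. Markers of other cell types rose in the same libraries, with 9 of 10 Sertoli markers and all 10 macrophage markers higher (median log2 fold changes of 3.98 and 2.70). All these lists share the whole-ovary RNA with *Vegfa*, and their part in its level was not tested.

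*Vegfb* and *Vegfc* did not pass the test. *Vegfb*, a ligand of FLT1 best known from heart and fat, was at 29.1, 22.7 and 27.1 CPM in *Trim28* cKO ovaries, against 24.5, 26.3 and 27.5 CPM in control ovaries. Its log2 fold change was 0.01 (SE 0.13, 95% interval -0.29 to 0.31, adjusted p = 0.957, edgeR), and its sign turned under several other settings. *Vegfc*, the ligand of FLT4 that drives lymphatic growth, was at 11.8, 15.9 and 16.3 CPM in *Trim28* cKO ovaries, against 17.9, 17.6 and 13.6 CPM in control ovaries. The groups overlapped, and its log2 fold change was -0.16 (SE 0.18, 95% interval -0.59 to 0.27, adjusted p = 0.527, edgeR), which corresponds to a fold between 0.666 and 1.21.

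The 3 VEGF receptors moved in different ways. *Flt1* fell and *Flt4* rose, and *Kdr* missed the threshold. *Flt1* (ENSMUSG00000029648) lies on the minus strand of chromosome 5, 147561604 to 147726011 in mm10. Its promoter is shown as the sequence context of the receptor that fell, and it holds a full cyclic AMP response element. The part of that site in the level of *Flt1* was not tested. The stretch is chr5:147726012-147726261 in GRCm38.p6 (RefSeq), the 250 bases before the start site at 147726011, read 5′ to 3′ on the minus strand, with CCGCCC (the reverse complement of the GC box), the cyclic AMP response element TGACGTCA and the TATA box TATAAA in capitals.
*Flt1* promoter: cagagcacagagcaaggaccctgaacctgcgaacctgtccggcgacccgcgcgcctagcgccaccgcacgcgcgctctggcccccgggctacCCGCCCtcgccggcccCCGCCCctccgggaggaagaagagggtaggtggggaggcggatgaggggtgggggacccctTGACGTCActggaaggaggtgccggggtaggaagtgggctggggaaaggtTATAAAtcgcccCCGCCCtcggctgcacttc

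The first base of the TATA box lies 31 bases, that of the cyclic AMP response element 81 bases and those of the GC boxes 19, 142 and 158 bases before the start site. TATAAA was found in 12.4% and TGACGTCA in 1.55% of the 32851 windows, on either strand. Of the 8 members with a promoter entry in the table, *Flt1* was the one with TGACGTCA. ETS factors are a family that endothelial genes use widely. Of the forms of their site only CCGGAA was searched, and it was found before *Kdr* alone of the 8 and in 12.0% of all windows. The shorter ETS core GGAA was not searched, and it stands in the *Flt1* window shown above. The forkhead core GTAAACA (3.17% of windows) and the orphan nuclear receptor site AAGGTCA (4.08%) were found before none of the 8. These matches describe the letters and do not show that a factor was bound. Not every window lies outside exons: of 250 bases, 250 before *Flt4* and 212 before *Tie1* are annotated exon bases.

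*Flt1* was at 31.4, 36.2 and 47.4 CPM in *Trim28* cKO ovaries, against 63.7, 52.7 and 55.5 CPM in control ovaries. The groups did not overlap, but the gap between them was smaller than the range of either group. Mean levels were 38.3 ± 8.22 CPM in *Trim28* cKO ovaries and 57.3 ± 5.71 CPM in control ovaries (SD, n = 3 each), a 1.49-fold lower level, with a log2 fold change of -0.58 (SE 0.17, 95% interval -0.97 to -0.19, adjusted p = 0.0314, edgeR). The direction held with each library left out in turn, and the call was lost without *Trim28* cKO replicate 1 (adjusted p = 0.0714), *Trim28* cKO replicate 2 (0.0910), control replicate 1 (0.107) or control replicate 3 (0.0656), within a range of 0.00961 to 0.107 over 13 other settings. A count per gene adds up the RNA of the membrane receptor and of the soluble form that *Flt1* also makes, so the share of each is not known here.

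*Kdr*, which carries most of the VEGFA signal in endothelial cells, was at 111, 139 and 141 CPM in *Trim28* cKO ovaries, against 131, 99.2 and 104 CPM in control ovaries. *Trim28* cKO replicate 1 and control replicate 1 crossed, so the groups overlapped. The log2 fold change was 0.23 (SE 0.14, 95% interval -0.11 to 0.56, adjusted p = 0.261, edgeR).

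*Flt4* had the largest rise of the members and the smallest spread within groups among the members that passed the test. It encodes the receptor of VEGFC and VEGFD, found on lymphatic endothelium and on some fenestrated and sprouting blood vessels. The gene (ENSMUSG00000020357) lies on chromosome 11, 49609263 to 49652739 in mm10. It was at 92.01, 102 and 89.4 CPM in *Trim28* cKO ovaries, against 42.7, 38.3 and 42.5 CPM in control ovaries. The lowest *Trim28* cKO library was above every control library by more than the whole range of either group. Mean levels were 94.6 ± 6.92 CPM in *Trim28* cKO ovaries and 41.2 ± 2.46 CPM in control ovaries (SD, n = 3 each), a 2.30-fold higher level, with a log2 fold change of 1.20 (SE 0.098, 95% interval 0.97 to 1.43, adjusted p = 0.000348, edgeR). With each library left out in turn it ranged from 1.15 to 1.25, with an adjusted p of 0.00107 to 0.00266.

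Lymphatic endothelial markers moved with *Flt4*. Of 8 markers 6 rose and 1 fell, with a median log2 fold change of 1.63. *Ccl21a*, the chemokine that lymphatic vessels use to draw in immune cells, and *Lyve1*, a hyaluronan receptor, rose by 2.61 and 2.25 on the log2 scale, while *Itga9*, an integrin of lymphatic valves, fell by 0.89. *Prox1*, the transcription factor that defines lymphatic identity, was at 9.78, 16.97 and 17.8 CPM in *Trim28* cKO ovaries and 8.98, 8.90 and 9.56 CPM in control ovaries, with a log2 fold change of 0.70 (SE 0.24, adjusted p = 0.0552, edgeR). The summed level of the list was 1040 to 1221 CPM in *Trim28* cKO ovaries and 492 to 546 CPM in control ovaries, and no marker was at 0 in all libraries. Some of these genes are also used outside lymphatic vessels, such as *Lyve1* and *Stab1* in tissue macrophages, and all 10 macrophage markers rose, with a summed level of 1716 to 2606 CPM in *Trim28* cKO ovaries and 285 to 357 CPM in control ovaries. The part of either cell type in the level of *Flt4* was not tested.

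Of the angiopoietins, *Angpt1* fell. It encodes the agonist that pericytes, smooth muscle and stromal cells supply to TEK on the endothelium. The gene (ENSMUSG00000022309) lies on the minus strand of chromosome 15, 42424723 to 42676977 in mm10. It was at 8.37, 15.2 and 18.9 CPM in *Trim28* cKO ovaries, against 38.3, 26.2 and 40.4 CPM in control ovaries. The groups did not overlap, though *Trim28* cKO replicate 1 was well below the other libraries of its group. Mean levels were 14.2 ± 5.35 CPM in *Trim28* cKO ovaries and 35.0 ± 7.68 CPM in control ovaries (SD, n = 3 each). The log2 fold change was -1.30 (SE 0.31, 95% interval -2.03 to -0.57, adjusted p = 0.0158, edgeR), the most negative of the members, and the call was lost without control replicate 1 (adjusted p = 0.0505, within a range of 0.000221 to 0.0505 over 13 other settings). *Angpt1* shares 737 exon bases with the antisense gene *Gm17473*, whose counts were 4, 9 and 18 in *Trim28* cKO libraries and 20, 12 and 4 in control libraries. The lowest *Angpt1* count was 261. Because the strand option of the counting is not known, reads on the shared bases may have been left out of both genes. The low counts of *Gm17473* therefore do not show how many *Angpt1* reads were affected.

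Pericyte and smooth muscle markers were lower beside it. Of 12 markers 6 fell and 2 rose. *Pdgfrb*, the receptor that recruits pericytes, and *Cspg4* (NG2) fell by 1.24 and 1.17 on the log2 scale, whereas *Des*, an intermediate filament of muscle cells, and *Abcc9*, a subunit of a potassium channel of pericytes, rose by 1.56 and 0.77. The summed level of the list was 716 to 1254 CPM in *Trim28* cKO ovaries and 1591 to 1949 CPM in control ovaries. The part of these cells in the level of *Angpt1* was not tested.

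*Angpt2* did not pass the test. It was at 14.4, 21.9 and 27.4 CPM in *Trim28* cKO ovaries, against 31.6, 39.2 and 21.8 CPM in control ovaries, and control replicate 3 lay within the range of the *Trim28* cKO libraries. The log2 fold change was -0.54 (SE 0.29, 95% interval -1.21 to 0.14, adjusted p = 0.185, edgeR). *Angpt2* lies within the span of the opposite-strand gene *Mcph1*, with no exon base shared, and *Mcph1* had 707 to 1287 counts per library.

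Neither receptor of the angiopoietin system passed the test. *Tek* was at 37.7, 55.7 and 68.0 CPM in *Trim28* cKO ovaries, against 50.7, 45.4 and 43.2 CPM in control ovaries. The *Trim28* cKO libraries lay on both sides of the control range, and the log2 fold change was 0.21 (SE 0.21, 95% interval -0.27 to 0.70, adjusted p = 0.451, edgeR). Without *Trim28* cKO replicate 1, the lowest, the log2 fold change was 0.42 (adjusted p = 0.0539, within a range of 0.0539 to 0.958 over 13 other settings). *Tie1*, the partner receptor that binds no angiopoietin by itself and modulates TEK, was at 73.9, 62.5 and 71.8 CPM in *Trim28* cKO ovaries, against 76.7, 68.4 and 66.5 CPM in control ovaries. Its log2 fold change was -0.02 (SE 0.11, 95% interval -0.27 to 0.23, adjusted p = 0.878, edgeR), which corresponds to a fold between 0.827 and 1.17.

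The library *Trim28* cKO replicate 1 was the lowest of its group for *Vegfa*, *Vegfc*, *Flt1*, *Kdr*, *Angpt1*, *Angpt2* and *Tek*, and the highest for *Vegfb* and *Tie1*. It was the shallowest library of its group, with 32441021 counts, against 43904823 and 48508461. Control replicate 2 was shallower still, with 23615580 counts. CPM values are scaled to library size, and the part of depth in these levels was not tested. The coefficient of variation in that group was 37.8% for *Angpt1*, 30.9% for *Angpt2* and 28.3% for *Tek*, and 7.31% for *Flt4*. In control ovaries it was 28.8% for *Vegfa*, 28.4% for *Angpt2* and 22.0% for *Angpt1*, and 5.98% for *Flt4*.

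**Figure D2:**
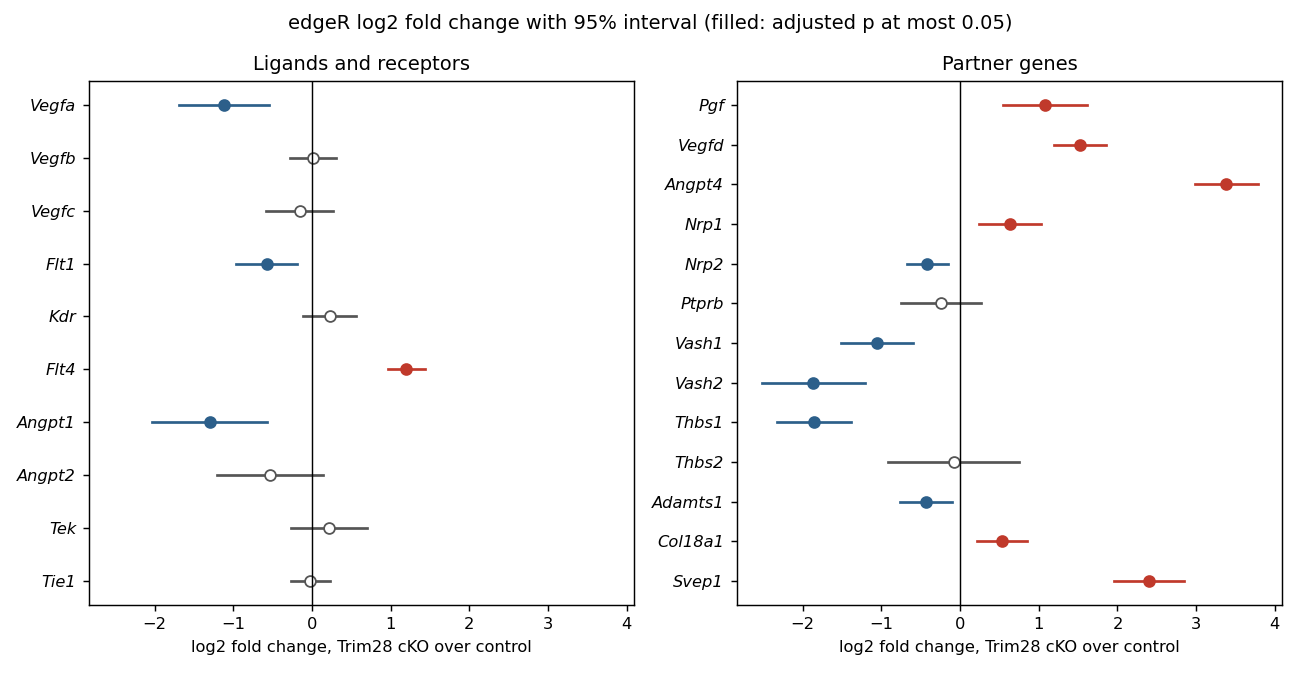
Log2 fold change of *Trim28* cKO over control from edgeR, with its 95% interval, for the 10 genes (left) and for 13 partner genes of the same pathways (right). Filled points passed an adjusted p of at most 0.05, red for higher and blue for lower in *Trim28* cKO ovaries. *Flt4* stands at 1.20 on the right of 0, *Angpt1* and *Vegfa* at -1.30 and -1.12 on its left, and *Angpt4* is the farthest of the partners at 3.38.

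The balance between members was read as a ratio of CPM within each library, which does not depend on how libraries were scaled. Each of 5 ratios was compared with a two-sided exact permutation test, whose smallest possible p with 3 libraries against 3 is 0.1, so no ratio could pass 0.05. The ratio of *Vegfa* to *Kdr*, ligand to main receptor, was 0.849, 0.964 and 0.983 in *Trim28* cKO ovaries, against 2.10, 1.86 and 3.23 in control ovaries. *Vegfa* thus stood below *Kdr* in every *Trim28* cKO library and above it in every control library on the CPM scale, which is not corrected for gene length, and the difference of log2 ratios was -1.33 (exact p = 0.1, adjusted p = 0.167).

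The ratio of *Flt1* to *Kdr*, trap to signalling receptor, was 0.281, 0.261 and 0.336 in *Trim28* cKO ovaries, against 0.485, 0.531 and 0.532 in control ovaries. The groups did not overlap, and the difference of log2 ratios was -0.82 (exact p = 0.1, adjusted p = 0.167). The ratio of *Vegfc* to *Flt4* was 0.129, 0.155 and 0.182 in *Trim28* cKO ovaries, against 0.419, 0.460 and 0.321 in control ovaries, with a difference of log2 ratios of -1.36 (exact p = 0.1, adjusted p = 0.167). Of that pair, *Flt4* passed the gene test and *Vegfc* did not. The other ratios overlapped between groups. That of *Angpt2* to *Angpt1* was 1.72, 1.44 and 1.45 in *Trim28* cKO ovaries, against 0.825, 1.499 and 0.539 in control ovaries (difference of log2 ratios 0.81, exact p = 0.3, adjusted p = 0.375), where control replicate 2 fell among the *Trim28* cKO libraries. Leaving out control replicate 3 gave a difference of 0.46, and leaving out control replicate 2 gave 1.20. That of *Tek* to *Tie1* was 0.510, 0.891 and 0.948 in *Trim28* cKO ovaries, against 0.660, 0.664 and 0.649 in control ovaries (difference 0.20, exact p = 0.4, adjusted p = 0.4), and the difference was 0.48 without *Trim28* cKO replicate 1, 0.081 without replicate 2 and 0.036 without replicate 3 of that group.

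The receptors were then set against endothelial RNA in the same library. Of 20 endothelial markers, none of them a member, 7 rose and none fell, and 1 fell without *Trim28* cKO replicate 3. *Vwf*, which encodes von Willebrand factor, and *Cd34*, a surface sialomucin that some stromal cells also carry, rose by 2.10 and 1.33 on the log2 scale. The defining markers *Pecam1* and *Cdh5* did not pass the test, with log2 fold changes of 0.04 (adjusted p = 0.820, edgeR) and -0.24 (adjusted p = 0.178). The summed level of the list was 1283 to 1510 CPM in *Trim28* cKO ovaries and 954 to 1039 CPM in control ovaries, and its mean log2 CPM was 5.46, 5.58 and 5.80 in *Trim28* cKO ovaries, against 5.25, 5.17 and 5.15 in control ovaries (difference 0.42, exact p = 0.1).

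Relative to the mean log2 CPM of these 20 markers, *Flt1* was 1.02 log2 units lower in *Trim28* cKO ovaries, at -0.49, -0.40 and -0.23, against 0.74, 0.55 and 0.64 in control ovaries. *Flt4* was 0.78 log2 units higher, at 1.06, 1.10 and 0.69 in *Trim28* cKO ovaries, against 0.17, 0.09 and 0.26 in control ovaries. Neither overlapped between groups (exact p = 0.1 and adjusted p = 0.167 for each, two-sided permutation test over 5 receptors). *Tie1* was 0.45 log2 units lower without overlap (exact p = 0.1, adjusted p = 0.167), and *Kdr* and *Tek* overlapped, with differences of -0.19 and -0.25 (exact p = 0.2 and adjusted p = 0.2 for each). The difference of *Kdr* was -0.10 without control replicate 1, and that of *Tek* was -0.087 without *Trim28* cKO replicate 1. When only *Pecam1* and *Cdh5* served as the endothelial measure, *Flt1* (-0.48) and *Flt4* (1.31) kept their direction, while *Kdr* (0.34), *Tek* (0.29) and *Tie1* (0.087) changed sign. The directions of *Kdr*, *Tek* and *Tie1* relative to the endothelium therefore depend on the markers.

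**Figure D3:**
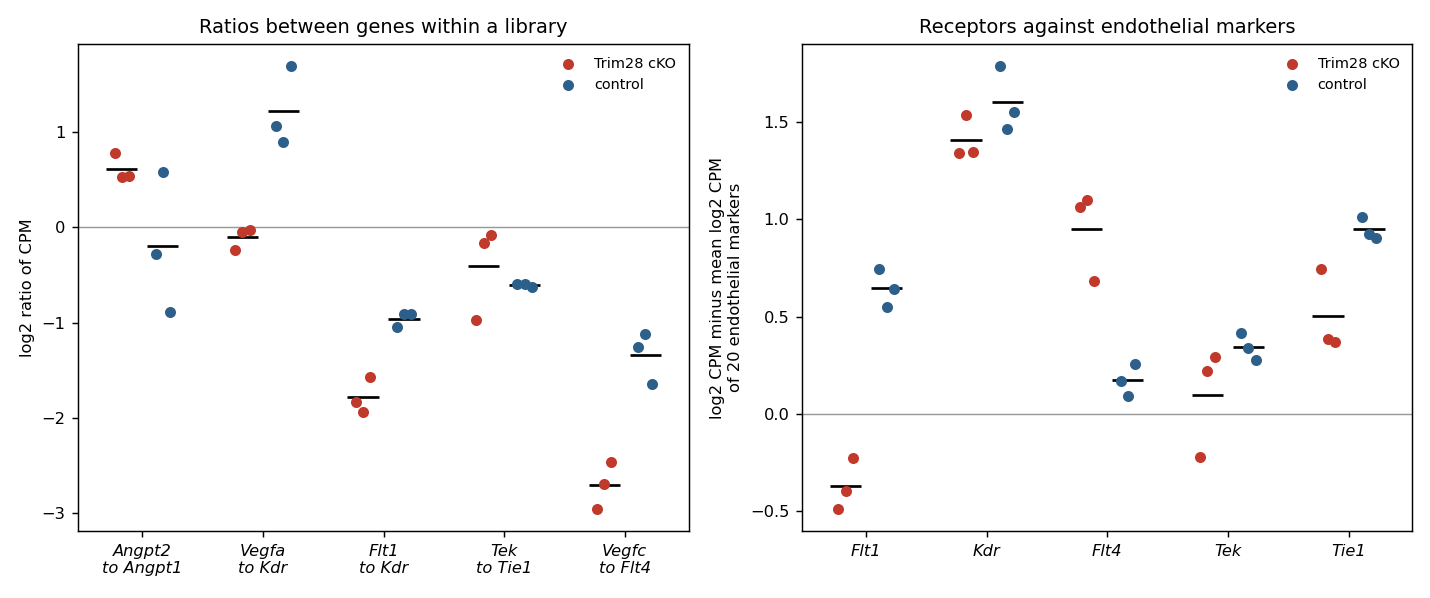
Log2 ratio of CPM between pairs of the genes (left) and log2 CPM of each receptor minus the mean log2 CPM of 20 endothelial markers (right), one point per library, *Trim28* cKO (red) left of control (blue), with bars at the mean. The log2 ratio of *Vegfa* to *Kdr* is below 0 in all 3 *Trim28* cKO libraries and above 0 in all 3 control libraries, and *Flt1* changes side of 0 in the same way against the endothelial markers.

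Levels of the genes relative to each other were read from the deposited normalized counts per kb of median transcript length. *Vegfa* was the highest member in both genotypes, at 5267 ± 1027 in *Trim28* cKO ovaries and 11348 ± 3199 in control ovaries (SD, n = 3 each). In *Trim28* cKO ovaries the order then was *Kdr* (1220 ± 151), *Vegfc* (993 ± 164), *Vegfb* (855 ± 112), *Flt4* (723 ± 47.8), *Flt1* (707 ± 154), *Tie1* (639 ± 60.1), *Tek* (464 ± 132), *Angpt2* (379 ± 118) and *Angpt1* (184 ± 69.6). The ranges of neighbours in this order overlapped from *Kdr* down to *Angpt2*, while *Vegfa* above *Kdr* and *Angpt1* below *Angpt2* stood clear. Read within each *Trim28* cKO library, *Kdr* was above *Vegfc*, *Tie1* above *Tek* and *Tek* above *Angpt2* in every library. The other overlapping neighbours changed order between *Trim28* cKO libraries. In control ovaries it was *Vegfc* (1103 ± 167), *Flt1* (1049 ± 104), *Kdr* (1036 ± 160), *Vegfb* (842 ± 46.1), *Tie1* (644 ± 51.0), *Angpt2* (548 ± 159), *Angpt1* (451 ± 96.7), *Tek* (397 ± 34.2) and *Flt4* (313 ± 17.2), so *Flt4* had rank 5 of 10 in *Trim28* cKO ovaries and rank 10 in control ovaries. *Vegfc*, *Flt1* and *Kdr* changed order between control libraries, and so did neighbours from *Tie1* down to *Tek*. *Vegfb* lay apart from *Kdr* and *Tie1*, and *Flt4* lay below every library of *Tek*.

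This order rests on the length used. Median transcript lengths include short and partial transcripts, 874 bases for *Vegfa* and 555 bases for *Vegfc*, against 4285 and 2449 bases for the union of their exons. Divided by union exon length, *Vegfa* was still first, at 1074 ± 209 in *Trim28* cKO ovaries and 2315 ± 653 in control ovaries, followed by *Vegfb* at 617 ± 80.7 in *Trim28* cKO ovaries and 607 ± 33.3 in control ovaries, while *Flt1* moved to rank 9 in *Trim28* cKO ovaries and rank 10 in control ovaries. Apart from the first place of *Vegfa*, the order of the members is not fixed by these data. The change of *Flt4* between genotypes does not depend on length.

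Partner genes of the same pathways changed on both sides. Of 13 other ligands, co-receptors, phosphatases, inhibitors and related proteins, 6 rose, 5 fell and 2 passed in neither direction, with a median log2 fold change of -0.08. Among the ligands, *Vegfd*, the second ligand of FLT4, was at 32.5, 29.3 and 37.2 CPM in *Trim28* cKO ovaries, against 10.6, 12.9 and 10.9 CPM in control ovaries, and rose by 1.53 on the log2 scale (SE 0.14, adjusted p = 0.000477, edgeR). *Pgf*, a ligand of FLT1, rose by 1.08 (SE 0.23, adjusted p = 0.00972), with 5.93, 4.43 and 4.94 CPM in *Trim28* cKO ovaries, against 2.39, 2.74 and 2.10 CPM in control ovaries. *Angpt4*, a further ligand of TEK, was at 96.0, 78.5 and 94.8 CPM in *Trim28* cKO ovaries, against 10.3, 7.14 and 8.25 CPM in control ovaries, and rose by 3.38 (SE 0.17, adjusted p = 0.000114). *Vegfd*, *Pgf* and *Angpt4* thus rose where *Vegfa* and *Angpt1* fell.

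The co-receptors split. *Nrp1*, which helps VEGFA at KDR, rose by 0.63 on the log2 scale (SE 0.17, adjusted p = 0.0242, edgeR), and *Nrp2*, the partner of FLT4 in lymphatic vessels, fell by 0.41 (SE 0.11, adjusted p = 0.0227). *Svep1*, a matrix protein of lymphatic vessel formation, rose by 2.40 (SE 0.19, adjusted p = 0.000304), and *Ptprb*, the phosphatase that dampens TEK, had a log2 fold change of -0.24 (SE 0.22, adjusted p = 0.421). Of the inhibitors, *Thbs1*, the anti-angiogenic matrix protein thrombospondin, was at 195, 314 and 238 CPM in *Trim28* cKO ovaries, against 882, 1017 and 795 CPM in control ovaries, and fell by 1.85 (SE 0.20, adjusted p = 0.000733). *Vash1*, the vasohibin gene whose protein restrains vessel growth, fell by 1.05. Its relative *Vash2*, which is not counted among the inhibitors here, fell by 1.86. *Adamts1*, a protease of ovulation that also binds VEGFA, fell by 0.43 (adjusted p = 0.0488). *Col18a1*, the source of endostatin, rose by 0.53, and *Thbs2* did not pass the test (-0.08, adjusted p = 0.873). Without *Trim28* cKO replicate 1, control replicate 1 or control replicate 3, 3 of the partners were lower instead of 5.

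Genes that VEGF and TEK signals act on in endothelial cells were found on both sides as well. Of 14 such genes 3 were higher, 6 were lower and 5 missed the threshold, with a median log2 fold change of -0.45. Of all tested genes 20.2% were higher and 16.8% lower. *Cxcr4*, a chemokine receptor of tip and immune cells, and *Klf2*, a transcription factor of quiet endothelium under flow, rose by 1.45 (adjusted p = 0.00935, edgeR) and 1.34 (adjusted p = 0.000418). *Foxo1*, a transcription factor that AKT signalling below TEK keeps out of the nucleus and that granulosa cells hold at a high level, fell by 2.03 (adjusted p = 0.00129), and *Esm1*, a tip cell gene, fell by 1.91 (adjusted p = 0.00891) at low levels of 0.257, 0.571 and 0.502 CPM in *Trim28* cKO ovaries, against 1.41, 1.43 and 2.23 CPM in control ovaries. Without *Trim28* cKO replicate 2, 3 of the 14 were lower instead of 6.

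Of 15 measured genes of the hypoxia response, the pathway best known for raising *Vegfa*, 3 were higher, 1 was lower and 11 missed the threshold. Of all tested genes 20.2% were higher and 16.8% lower, so the list had no excess of risen genes. Its median log2 fold change was 0.14. *Ankrd37* and *Ndrg1*, which hypoxia-inducible factors switch on, rose by 1.31 (adjusted p = 0.0299, edgeR) and 1.07 (adjusted p = 0.000860). The levels of *Ankrd37* were low, at 1.83, 2.58 and 1.57 CPM in *Trim28* cKO ovaries, against 0.539, 1.14 and 0.752 CPM in control ovaries. *Hif1a*, which encodes the oxygen-regulated factor itself, fell by 0.43 (adjusted p = 0.0154), though that factor is mostly set at the protein level, which was not measured. The number of risen hypoxia genes was 1 without *Trim28* cKO replicate 2, control replicate 1 or control replicate 3, and *Hif1a* was not called without control replicate 1 or control replicate 3.

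**Figure D4:**
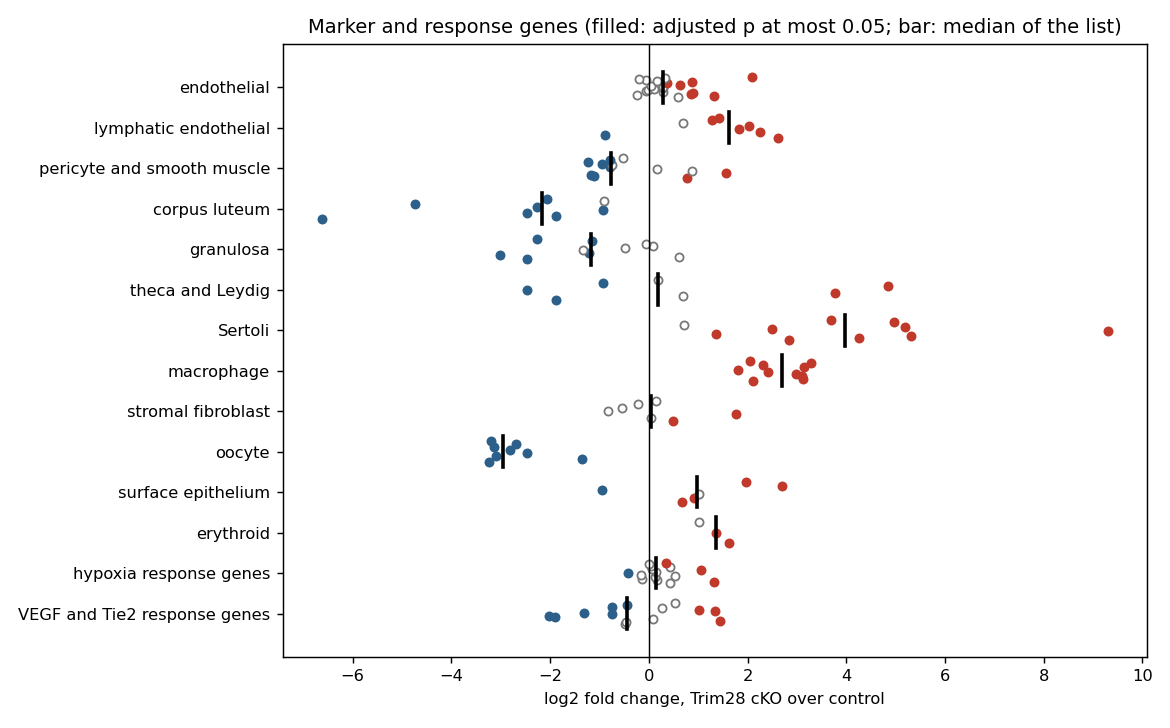
Log2 fold change of *Trim28* cKO over control of each gene of the cell type marker lists and of the hypoxia and VEGF/TIE2 response lists, one point per gene, filled where the adjusted p was at most 0.05 (red higher, blue lower), with a bar at the median of the list. Macrophage and lymphatic markers lie mostly to the right of 0, with medians of 2.70 and 1.63, corpus luteum and oocyte markers to the left, with medians of -2.17 and -2.96, and endothelial markers close to 0, with a median of 0.29.

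Other cell types of the ovary differed between the same libraries. Of 10 Sertoli markers 9 rose, with a summed level of 520 to 1091 CPM in *Trim28* cKO ovaries and 47.3 to 73.7 CPM in control ovaries. All 8 oocyte markers fell, with a summed level of 39.8 to 49.2 CPM in *Trim28* cKO ovaries and 222 to 452 CPM in control ovaries. Of 7 theca and Leydig markers 2 rose and 3 fell, the 3 being genes of the corpus luteum list as well, and of 7 stromal markers 2 rose (*Dcn* and *Col1a1*, by 1.77 and 0.48 on the log2 scale), a count that was 1 without *Trim28* cKO replicate 2 or 3 or control replicate 2 or 3. Of 6 surface epithelium markers 4 rose and 1 fell (0 fell without *Trim28* cKO replicate 3). Of 3 erythroid markers 2 rose, a count that was 0 without control replicate 1 and 1 without any other library. The part of these cells in the levels of the 10 genes was not tested.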

How the data were processed

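RNA-seq libraries of whole ovaries from 3 *Trim28* cKO and 3 control mice were analysed. The authors aligned single-end reads of stranded mRNA libraries (STAR 2.5.3a, mm10) and deposited the raw count of each Ensembl gene (htseq-count 0.6.1p1). The processing notes of the submitters list bcl2fastq 2.17.1.14 and DESeq2 1.16.1 too. For strand, the option used in counting is not given in the sources at hand. The authors also deposited a signal of size-factor normalized counts per kb of median transcript length, with that length, which was used here for the levels of genes relative to each other. Another 6 columns of normalized signal and 3 columns of the authors' own comparison (log2 fold change, p and adjusted p) were not used.

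Counts were filtered with filterByExpr (minimum count 10, minimum total 15), scaled by TMM and put through the robust quasi-likelihood F test of edgeR 4.0.16 (R 4.3.3), with Benjamini-Hochberg adjustment over 18959 genes and a call at an adjusted p of at most 0.05. The standard error is the size of the log2 fold change divided by the square root of F. The fit was tested on simulated data. Libraries of a group differed by more than sampling noise (chi-square over its degrees of freedom, 29.4 to 89.4). Exact permutation tests and figures used scipy 1.17.1 and matplotlib 3.10.9. Alternatives were DESeq2 size factors, library size alone, other filters, limma-voom (limma 3.58.1), DESeq2 1.42.0 with its Wald test, the replicate number as a block, other call rules and each library left out. The members and gene lists were chosen with earlier results of these data known. The named genes were all members and partner genes, and up to 2 of the highest and lowest changes that passed the test in each other list. *Pecam1*, *Cdh5*, *Prox1*, *Star* and *Stab1* were named after their values were seen. The union exon lengths (GENCODE vM21), the list counts without a library and the searched motifs were chosen after the data and the promoter sequences were seen. Promoters of 8 members were read from a RefSeq table (GRCm38.p6).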

Additional observations from a re-analysis of the deposited data

How the results depend on the processing

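Every member had at least 261 counts per library, and with 3 libraries per group the number of ovaries limits the precision. Across 13 other settings for tests, scaling, filters and left-out libraries, *Vegfa* and *Flt4* kept direction and call, *Angpt1* lost its call in 1 and *Flt1* in 5, and *Vegfb* and *Tie1*, neither called, changed sign. At an adjusted p of at most 0.01, edgeR called 0 members lower (DESeq2 2, limma-voom 0, and 3 at an unadjusted p of at most 0.05 in edgeR), and 2238 of all genes higher and 1528 lower, and with a log2 fold change beyond 1 as well as an adjusted p of at most 0.05, 1523 of all genes were lower. With each library left out in turn, 1 (without control replicate 1) to 3 members were lower, and 2039 (without control replicate 1) to 2753 of all genes were lower. *Vegfb* had a log2 fold change of -0.043 with library size alone and -0.0052 with limma-voom, and -0.066 to 0.11 with libraries left out, and *Tie1* had -0.070 to 0.052. With *Pecam1* and *Cdh5* alone as endothelial markers, the differences were -0.48 for *Flt1*, 0.34 for *Kdr*, 1.31 for *Flt4*, 0.29 for *Tek* and 0.087 for *Tie1*. The causes were not tested.

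Samples share replicate numbers in the labels, but deviations of same-numbered libraries did not go together (correlations of -0.070, 0.060 and -0.17), so the number was not taken as a pairing. With the replicate number as a replicate block, 1 member was higher and 2 were lower (*Flt1* had a log2 fold change of -0.59 and an adjusted p of 0.0549), against 3162 of all genes higher and 2339 lower.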
